A study of Mus musculus with 98 samples.

Results

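Expression of 10 genes of fatty acid synthesis and desaturation (Acaca, Acacb, Fasn, Scd1, Scd2, Elovl5, Elovl6, Fads1, Fads2 and Srebf1) was measured in 98 RNA-seq libraries from mouse hippocampal neurons and mouse hippocampus. The genes were taken by name as a list of lipogenic enzymes and their transcription factor. All 10 were found in each of 6 count tables, out of 24754 gene symbols that the tables share, and all 10 passed the filter on low counts in every fit.

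Cells build saturated fatty acids from acetyl-CoA in the cytosol. Acetyl-CoA carboxylase makes malonyl-CoA, fatty acid synthase joins the units into palmitate, elongases lengthen the chain, and desaturases put in double bonds. SREBP-1, the product of Srebf1, is a transcription factor known to switch on many of these genes. ACSS2 makes acetyl-CoA from acetate in the cytosol and the nucleus, and is itself counted among the targets of SREBP factors. In the brain, glia and above all astrocytes are known as a main site of lipid synthesis.

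The libraries formed 22 groups. Primary hippocampal neurons from CD1 embryos received a PhP.eB virus, a capsid made to reach the brain, carrying either Acss2 (upACSS2) or no insert (vector), and then the tau material labelled hAD-tau or PBS. They were harvested on day 9 of culture (4 groups of 3), on day 21 (4 groups of 3), or on day 21 and labelled as stimulated, with no stimulus named (4 groups of 3). A further culture experiment without a virus compared 4 libraries given hAD-tau with 3 given PBS, all on day 21. In mice the viruses were injected behind the eye. Whole hippocampus came from male C57BL6 mice aged 22 to 23 months (12 upACSS2, 12 vector) after a memory recall test, and dorsal hippocampus from male C57BL6 mice aged 10 months (6 upACSS2, 5 vector) after fear conditioning. Male PS19 mice, which carry a mutant human tau transgene driven by the Prnp promoter, were sampled after recall at 3.5 months of age (1 month after injection) and at 8.5 to 9 months (6 months after injection), with 5 mice per virus and time. The PS19 upACSS2 mice at 1 month are labelled whole hippocampus and the other PS19 groups dorsal hippocampus, so at 1 month tissue and virus cannot be told apart. The promoter in the virus is not given in the sources used here, and nothing says whether culture replicates came from separate litters, so p-values there measure the spread between these samples. The treatment entry contradicts the title for the vector neurons with tau, the upACSS2 neurons with PBS, the PS19 upACSS2 mice at 1 month and replicate 5 of the PS19 vector mice at 1 month. Groups were taken from the titles.

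Libraries held 5075099 to 39985460 counts. Neuronal markers were high in all cultures, but so were astrocyte markers: their summed level (7 genes) rose from 2105 to 2605 CPM across the day 9 libraries to 3224 to 18380 CPM across the unstimulated day 21 libraries. CPM is a gene's count divided by the library size, which was scaled by the TMM method, and put on the usual per-library scale of that unit. Cldn5, an endothelial marker, was at 0 in every culture library of day 21, and 7 microglial markers summed to at most 12.6 CPM in the cultures with a virus. Without a virus the microglial sum was 15.4 to 254 CPM with tau and 23.4 to 120 CPM with PBS. In such bulk samples, fewer cells of a type and less RNA per cell cannot be told apart.

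Acss2, on chromosome 2, checks the titles. In cultures with upACSS2 it lay between 1488 and 5462 CPM in every library, and in cultures with vector between 40.1 and 57.9 CPM. In PS19 mice at 1 month the 5 upACSS2 libraries held 146, 1190, 318, 60.1 and 1465 CPM and the 5 vector libraries 66.3, 51.5, 52.8, 51.65 and 53.1 CPM, so replicate 4 with upACSS2 lay below the highest vector mouse. At 6 months the upACSS2 mice held 237, 100.5, 44.95, 55.4 and 111 CPM, against 43.1 to 56.0 CPM with vector. In the aged hippocampus the mean was 54.4 ± 4.67 CPM (SD, n = 12) after upACSS2, beside 47.4 ± 3.39 CPM (n = 12) after vector, and at 10 months it was 55.8 ± 4.2 CPM (n = 6) beside 44.8 ± 3.06 CPM (n = 5). The ratio of mean Acss2 RNA was 37.5-fold to 89.5-fold in cultures (called in all 6 comparisons), 11.5-fold and 2.28-fold in PS19 mice at 1 and 6 months, and 1.15-fold and 1.24-fold in the aged and 10-month hippocampus, and none of the mouse differences passed over all genes (adjusted p 0.371, 0.373, 0.832 and 0.518).

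Levels between genes were compared as CPM per kilobase of annotated exon (GENCODE vM21, GRCm38), as the median over the 22 group means. Scd2, the stearoyl-CoA desaturase known as the brain form, was the highest at 375 CPM per kb. Fads2 (delta-6 desaturase) followed at 133, Fads1 (delta-5 desaturase) at 62.8, Scd1 at 37.3 and Fasn (fatty acid synthase) at 37.0 CPM per kb. Lower still were Elovl5 (elongase of polyunsaturated chains) at 25.5, Elovl6 (elongase of palmitate) at 17.3, Srebf1 at 10.2 and Acaca (acetyl-CoA carboxylase 1, cytosolic) at 3.5 CPM per kb. Acacb, the carboxylase at the mitochondrial surface that is best known from muscle, was the lowest at 0.327 CPM per kb. Scd1 and Scd2 lie near each other on chromosome 19 (44394455 to 44407879, minus strand, and 44293674 to 44306864, plus strand), as do Fads1 (10182888 to 10196877, plus) and Fads2 (10062765 to 10101746, minus). Acaca (84129672 to 84401651, plus), Fasn (120805846 to 120824547, minus) and Srebf1 (60199089 to 60222581, minus) are on chromosome 11, Elovl6 (129532355 to 129638495, plus) on chromosome 3, Elovl5 (77917364 to 77984519, plus) on chromosome 9 and Acacb (114146535 to 114250761, plus) on chromosome 5. How reads shared by Scd1 and its paralogs, or by genes that overlap on opposite strands (Srebf1 and Rai1, Acss2 and Gss), were counted is not given in the sources used here.

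Across groups each gene had a range of its own. Acaca, Fasn and Elovl6 were highest on day 9 of culture (highest group means 152, 1264 and 264 CPM) and lowest in the 10-month hippocampus with vector (37.2, 270.4 and 56.6 CPM). Scd1, Scd2, Elovl5, Fads1, Fads2 and Srebf1 were highest in the cultures given hAD-tau without a virus (441, 3793, 210, 637, 913 and 267 CPM). Srebf1 was lowest in day 9 neurons (34.3 CPM with vector and PBS), and Acacb too (0.91 CPM). The lowest group means were 1335 CPM for Scd2 (10-month upACSS2), 133 CPM for Scd1 (day 21 upACSS2 with PBS), 56.0 and 154 CPM for Elovl5 and Fads2 (aged vector) and 205 CPM for Fads1 (PS19 vector at 6 months). Tables differ in experiment and were scaled apart, so these orders are descriptions.

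**Figure D1:**
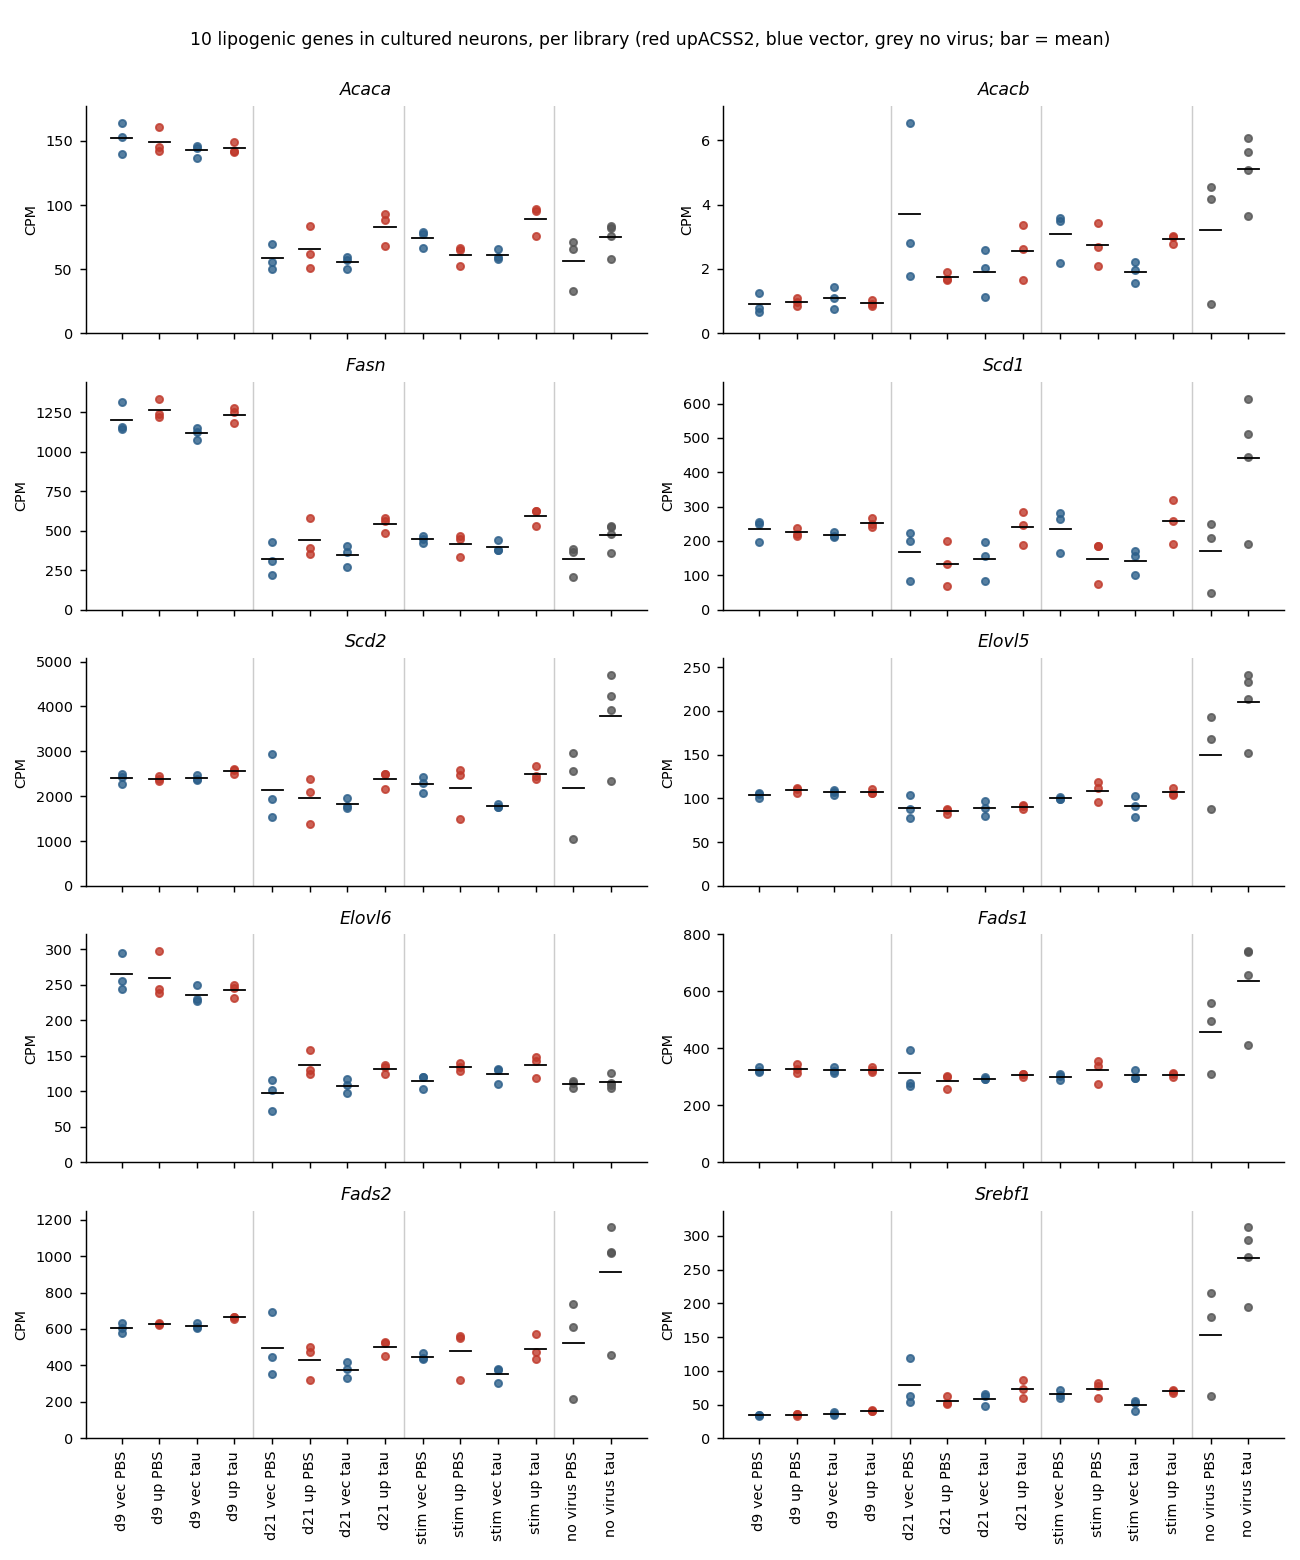
CPM of each of the 10 genes (vertical axes from 0) in every culture library, by group (d9 and d21, day of culture; stim, stimulated; vec, vector; up, upACSS2); points are libraries and bars are means. Acaca, Fasn and Elovl6 sit higher in all 12 day 9 libraries than in any day 21 library, Srebf1 sits lower there than in any unstimulated day 21 library.

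Between day 9 and day 21 of culture the genes that start and finish palmitate synthesis fell and Srebf1 rose. Fasn fell 2.27-fold to 3.78-fold, Acaca 1.73-fold to 2.6-fold and Elovl6 1.84-fold to 2.73-fold over the 4 settings of virus and tau, while Srebf1 rose 1.57-fold to 2.31-fold. In each setting 6 of 10 members passed an adjusted p of 0.05 (edgeR quasi-likelihood test over all genes). That share has to be read against percentages of all tested genes called, which were 57.7% with vector and PBS, 52.6% with vector and tau, 54.3% with upACSS2 and PBS and 53.6% with upACSS2 and tau. The median log2 fold change of the 10 genes was -0.25, -0.48, -0.45 and -0.18, beside 0.05, 0.04, 0.03 and 0.01 over all genes.

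Fasn, which builds palmitate, held 1316, 1142 and 1155 CPM in the day 9 vector libraries with PBS and 427, 220.5 and 308.5 CPM in those of day 21. No day 21 library reached any day 9 library, and the log2 fold change was -1.92 ± 0.19 (SE, adjusted p 7.5e-08). With vector and tau it was -1.68, with upACSS2 and PBS -1.52, and with upACSS2 and tau -1.18 ± 0.19 (adjusted p 2.85e-05). Acaca, which makes the malonyl-CoA that Fasn uses, went from 164, 139.9 and 153 CPM to 70.0, 50.02 and 55.5 CPM with vector and PBS. Its groups did not overlap in any of the 4 settings, with log2 fold changes of -1.38 ± 0.15, -1.36 ± 0.15, -1.19 ± 0.15 and -0.79 ± 0.14 in the same order. Elovl6, which takes palmitate on to stearate, held 294, 256 and 243 CPM on day 9 and 116, 101 and 72.5 CPM on day 21 with vector and PBS. Its log2 fold changes were -1.45, -1.13, -0.92 and -0.88, again with no overlap. Elovl5 was lower by less, with log2 fold changes of -0.21, -0.28, -0.35 and -0.26. The first of these rests on single libraries: with vector and PBS its groups overlapped and the adjusted p of 0.0327 rose above 0.05 when replicate 1 or 2 of day 9 (0.0871 and 0.0778) or replicate 1 or 2 of day 21 (0.288 and 0.0747) was left out. With vector and tau it was 0.0621 without replicate 1 of day 21.

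Srebf1 moved the other way. It held 34.98, 32.9 and 34.97 CPM in the day 9 vector libraries with PBS and 63.1, 54.2 and 119.8 CPM in those of day 21. Replicate 3 of day 21 was the highest, and all 3 lay above day 9. The log2 fold changes were 1.21 ± 0.2, 0.69 ± 0.2, 0.65 ± 0.2 and 0.84 ± 0.2, with no overlap of groups in any setting. Acacb was also higher on day 21 where it was called, by 2.06 ± 0.41 with vector and PBS and 1.43 ± 0.41 with upACSS2 and tau on the log2 scale, from levels of about 1 CPM. In the other settings its log2 fold changes were 0.80 (adjusted p 0.124) and 0.83 (adjusted p 0.106).

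Among the desaturases Fads2 fell with vector and tau (log2 fold change -0.71 ± 0.17, adjusted p 0.0018) and with upACSS2 and PBS (-0.54 ± 0.17, adjusted p 0.0124, or 0.0979 without day 21 replicate 2). With vector and PBS it was -0.28 (adjusted p 0.169) and with upACSS2 and tau -0.41 (adjusted p 0.053). Scd1 gave log2 fold changes of -0.48, -0.56, -0.75 and -0.08, Scd2 of -0.16, -0.39, -0.29 and -0.10 and Fads1 of -0.05, -0.14, -0.20 and -0.08, none of which passed. The day 21 libraries spread far more than the day 9 libraries: Scd1 ran from 196 to 256 CPM on day 9 and from 83.4 to 223 CPM on day 21 with vector and PBS. Replicate 3 of the day 21 vector group with PBS stood apart, with 18380 CPM of astrocyte markers against 4100 and 7194 CPM in its group and with the highest Srebf1, Acacb, Elovl5, Fads1, Fads2 and Scd2 and the lowest Elovl6 of its group. Between days with vector and PBS, leaving out single libraries gave 5 to 9 of 10 members called. The 9 came without this replicate. The full fit called 57.7% of all genes, and the share without this replicate is not given here.

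Glial markers moved with these changes. The astrocyte sum was 2154 to 2379 CPM on day 9 and 4100 to 18380 CPM on day 21 with vector and PBS, and the sum of 8 oligodendrocyte markers went from 42.2 to 46.2 CPM to 378 to 889 CPM. The neuronal sum (8 genes) was 6667 to 6899 CPM and then 4576 to 7379 CPM. The part of cell makeup in the day difference was not tested.

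Whether the fall differed by virus was asked with an interaction of virus and day, added after the data had been seen. No member passed with PBS (0.0404% of genes called) or with tau (0% called). The interaction estimates on the log2 scale were 0.57 ± 0.2 for Acaca (p 0.0114, adjusted 0.691) and 0.50 ± 0.27 for Fasn with tau, and 0.53 ± 0.19 for Elovl6 with PBS (p 0.00985, adjusted 0.251).

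Other genes of the pathway shifted between days in both directions, in comparisons where 52.6% to 57.7% of all genes were called. Of 6 genes that supply carbon and NADPH, 3 fell and 1 rose with vector and PBS, and 3, 4 and 3 fell in the other settings with none higher. Idh1, which makes NADPH in the cytosol, fell by 1.86 with vector and tau and by 1.72 with upACSS2 and tau on the log2 scale. Acly, which makes cytosolic acetyl-CoA from citrate and was singled out after its values were seen, had log2 fold changes of -1.98, -1.79, -1.705 and -1.58, all past the threshold. Of 14 tested regulators, 6 rose and 6 fell with vector and PBS. Among those that fell were Srebf2, the other SREBP gene (-1.25 ± 0.14), and Insig1 (-1.57 ± 0.19). Among those that rose was Nr1h3 (1.79 ± 0.32). These regulators were picked out after their values were seen. Among 9 other elongation genes 3 rose and 4 fell there, with Elovl7, a further fatty acid elongase, up by 2.02 ± 0.43. Of 11 genes of acyl-CoA and glycerolipid synthesis 6 rose and 4 fell, with Agpat2, an acyltransferase of phosphatidic acid synthesis, up by 2.12 ± 0.37 and Pnpla3, a lipid-droplet protein, down (-2.23 ± 0.18).

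Acaca, Fasn, Elovl6 and Srebf1 were called in all 4 day comparisons with no overlap of groups in any, so the sequence upstream of their starts is shown (RefSeq, GRCm38.p6, 250 bases before the start, strand of the gene). Capitals mark matches on either strand to the CCAAT box (its name gives its letters), the GC box (letters GGGCGG), the E-box (letters CACGTG) or a sterol-element type of motif (letters TCACNCCAC), and matches may overlap. Of 10 members 7 had an entry.
Fasn (chr11:120824548-120824797, minus strand): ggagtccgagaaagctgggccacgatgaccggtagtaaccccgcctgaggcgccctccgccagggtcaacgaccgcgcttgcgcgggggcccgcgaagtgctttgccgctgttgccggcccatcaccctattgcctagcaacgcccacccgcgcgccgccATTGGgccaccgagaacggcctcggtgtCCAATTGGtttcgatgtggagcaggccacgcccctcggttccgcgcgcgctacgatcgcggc
Acaca (chr11:84195188-84195437, plus strand, a start inside the annotated gene): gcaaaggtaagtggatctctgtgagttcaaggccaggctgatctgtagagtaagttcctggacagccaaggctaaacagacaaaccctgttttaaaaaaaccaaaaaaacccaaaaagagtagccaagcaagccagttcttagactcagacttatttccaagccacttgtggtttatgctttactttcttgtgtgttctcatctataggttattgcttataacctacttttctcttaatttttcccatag
Elovl6 (chr3:129532136-129532385, plus strand): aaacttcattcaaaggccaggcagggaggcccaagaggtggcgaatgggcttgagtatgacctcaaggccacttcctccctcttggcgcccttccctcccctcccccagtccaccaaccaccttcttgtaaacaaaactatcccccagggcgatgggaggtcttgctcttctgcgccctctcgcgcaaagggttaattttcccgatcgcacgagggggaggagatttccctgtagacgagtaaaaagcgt
Srebf1 (chr11:60222582-60222831, minus strand, the first of 3 listed starts): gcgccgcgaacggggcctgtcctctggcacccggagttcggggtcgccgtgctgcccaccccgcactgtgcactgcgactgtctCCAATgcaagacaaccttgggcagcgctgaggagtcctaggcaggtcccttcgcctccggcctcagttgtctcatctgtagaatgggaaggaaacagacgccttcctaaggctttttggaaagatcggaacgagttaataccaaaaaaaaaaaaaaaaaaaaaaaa
The Fasn stretch held 3 CCAAT matches, at -90 to -86 and -59 to -55 on the opposite strand and at -62 to -58 on the gene's strand, counted from the start. That of Srebf1 held 1, at -166 to -162. The second Srebf1 start, not printed, held 2 GC boxes, at -36 to -31 and, on the opposite strand, -14 to -9. The third, also not printed, held 2 GC boxes, at -65 to -60 and -6 to -1. It also held 1 CCAAT match, at -30 to -26 on the opposite strand. The Elovl6 stretch held none of the 4 motifs, nor did the Acaca stretch. That Acaca stretch (from 84195188) lies inside the annotated gene (from 84129672). The sequence before the gene's first annotated base was not searched, so nothing is said of motifs there. Elovl5, also called in all 4 comparisons but with overlap in one, is not printed; its stretch held 2 CCAAT matches, at -71 to -67 and -17 to -13 on the opposite strand, and 1 E-box at -161 to -156. CCAAT was found in 33.8% of 32851 promoters searched the same way, the GC box in 32.7%, the E-box in 6.02% and the sterol-element motif in 1.05%.

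Raising Acss2 in unstimulated neurons called no member in any of 4 comparisons with vector (edgeR; DESeq2 also called 0 in each). On day 9, where replicates were closest, 10.2% of all genes were called with PBS and 0.692% with tau. The members' log2 fold changes ran from -0.06 to 0.14 with PBS (median 0.03) and from -0.19 to 0.22 with tau (median 0.06, all genes 0). On day 21, 0.0137% of genes were called with PBS and 0.0273% with tau, and the members ran from -1.12 to 0.50 and from 0.03 to 0.72 (medians -0.14 and 0.41). At an unadjusted p under 0.05 the members counted 0 with PBS and 5 with tau on day 9, beside 26.2% and 12.6% of all genes, and 2 and 2 on day 21, beside 16.6% and 10.7%. In tau on day 9, 5 of 10 members were higher in every upACSS2 library than in any vector library, beside 9.14% of all genes. In tau on day 21 this held for 6 of 10, beside 9.47% of all genes.

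Scd1, which makes oleate from stearate, shows the size of these differences on day 9 in tau: 268, 249 and 242 CPM with upACSS2 and 213, 210.2 and 227 CPM with vector. The log2 fold change was 0.22 and the lowest adjusted p among the members was 0.133. On day 21 in tau Fasn held 583, 488 and 561 CPM with upACSS2 and 404, 270.5 and 368 CPM with vector, a log2 fold change of 0.66. Acaca held 93.1, 68.4 and 88.1 CPM with upACSS2 and 57.0, 50.2 and 59.2 CPM with vector, a log2 fold change of 0.60. Both sets of 3 lay apart, but the lowest adjusted p among members on day 21 in tau was 0.311. With PBS on day 21 the signs were mixed, Fasn at 0.46, Elovl6 at 0.50, Srebf1 at -0.53 and Acacb at -1.12 on the log2 scale, and replicate 3 of the vector group is the library with the high astrocyte sum. In tau on day 21 the astrocyte sum was 5471 to 10290 CPM with upACSS2 and 3224 to 5190 CPM with vector, also with no overlap, and its part in the members' difference was not tested.

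**Figure D2:**
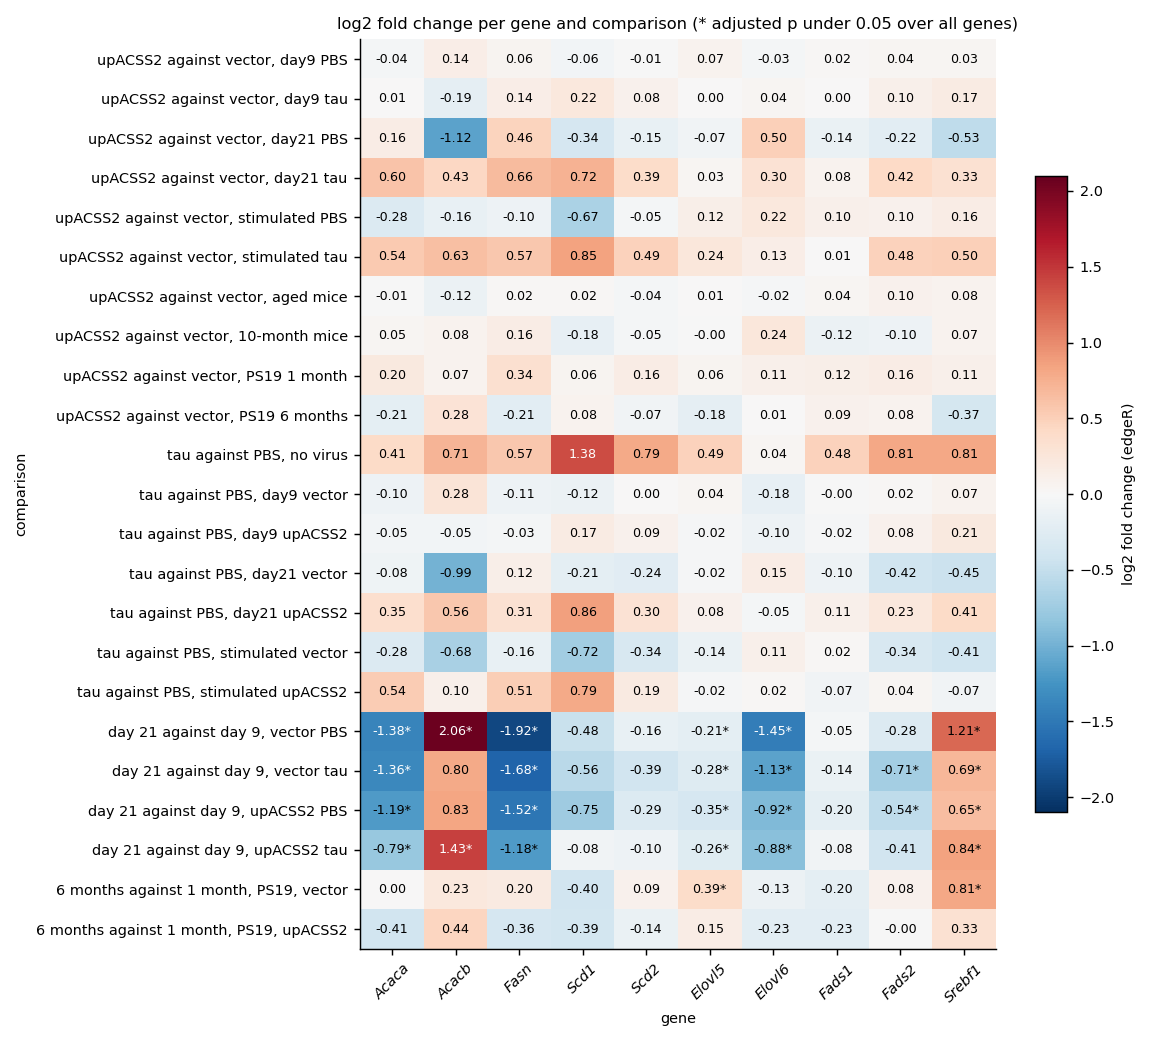
log2 fold change (edgeR) of each gene (columns) in 23 comparisons (rows), with an asterisk where the adjusted p over all genes was under 0.05. Calls appear in the day comparisons and in PS19 vector mice over time; the rows for upACSS2 against vector in tau on day 21 and in stimulated tau neurons are positive for all 10 genes.

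In stimulated neurons given tau, all 10 members had a positive log2 fold change with upACSS2 against vector (0.01 to 0.85, median 0.49, all genes 0). For 8 of 10 every upACSS2 library lay above every vector library, beside 12.4% of all genes, and 8 had an unadjusted p under 0.05, beside 20.4% of all genes. None passed the adjusted threshold in the fit without a replicate term, where 0.937% of genes were called. Same-numbered libraries deviated together in this comparison (correlations 0.111 to 0.359), and with the replicate number as a block 3 of 10 passed: Acaca (log2 fold change 0.54, adjusted p 0.0121), Fasn (0.57, adjusted p 0.0146) and Scd1 (0.86, adjusted p 0.0167). The block called 399 of 14939 genes in all, against 140 without it. It was fitted over all 12 stimulated libraries. Numbers did not pair among them for virus with PBS (-0.111 to 0.145) or for tau with upACSS2 (-0.115 to 0.156). The titles give numbers but state no pairing, which was read from these data. DESeq2 without the block also called 3 members, and 966 genes in all.

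Fasn held 623, 531 and 626 CPM with upACSS2 and tau, and 376, 380.3 and 442.5 CPM with vector and tau, replicates in order. Every upACSS2 library was above every vector library, which holds under any pairing. The fit without pairing gave a log2 fold change of 0.57 ± 0.12 (adjusted p 0.0521). Acaca held 96.5, 76.0 and 95.1 CPM against 57.9, 59.5 and 66.1 CPM, a log2 fold change of 0.54 ± 0.12 (adjusted p 0.0552). Scd1 held 319, 192 and 259 CPM against 171, 101 and 157 CPM, with replicate 2 lowest in both groups, and gave 0.85 ± 0.33 (adjusted p 0.176). Scd2 held 2672, 2440 and 2381 CPM against 1766, 1751 and 1835 CPM, 0.49 ± 0.16 on the log2 scale (adjusted p 0.124). Srebf1 held 67.4, 71.9 and 69.8 CPM against 51.6, 54.6 and 41.2 CPM, 0.50 ± 0.13 (adjusted p 0.079). The groups lay apart for each of these 5 genes. Acacb (0.63), Fads2 (0.48) and Elovl5 (0.24) were also apart, while Elovl6 (0.13) and Fads1 (0.01) overlapped.

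With PBS in place of tau the same virus comparison gave log2 fold changes from -0.67 to 0.22 (median 0.02) and called no member (0.208% of genes called; 2 members unadjusted, beside 15.9% of genes, and 0 by DESeq2). Scd1 there held 185.5, 74.7 and 184 CPM with upACSS2 and 263, 164 and 281 CPM with vector. The other contrasts of the same 12 libraries share these groups. Their counts by DESeq2 and with the block come without a share of all genes, so they are not results about the members. Tau against PBS with vector gave a median of -0.31, with 4 of 10 members lower in every tau library than in any PBS library (13.1% of genes), and no member passed without the block (3.02% called; 4 members unadjusted, beside 24.3% of genes, and 1 by DESeq2). Replicates paired there too (0.123 to 0.326), and with the block Scd1 passed (-0.72, adjusted p 0.0224). Tau against PBS with upACSS2 gave a median of 0.07, with 3 of 10 higher without overlap (Acaca, Fasn and Scd1; 12.5% of genes), and no member passed (0.208% called; lowest adjusted p 0.0828, Acaca; 3 members unadjusted, beside 14.3% of genes, and 2 by DESeq2). The interaction of virus and tau was 0.82 for Acaca, 0.67 for Fasn and 1.52 for Scd1 on the log2 scale, none past the threshold (0% of genes called; lowest adjusted p among members 0.233; 5 members unadjusted, beside 14.3% of genes, and 2 by DESeq2).

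Astrocyte markers moved in the same libraries. Their sum was 6687 to 7438 CPM with upACSS2 and tau, 2748 to 4253 CPM with vector and tau, 5003 to 8973 CPM with upACSS2 and PBS and 5622 to 8982 CPM with vector and PBS, so the vector libraries with tau lay below all 9 others. Neuronal sums overlapped across the groups (6213 to 8356 CPM). The part of cell makeup in the virus difference in tau was not tested. In the wider pathway 1 of 8 other desaturation genes rose with upACSS2 in tau, Scd4, a further stearoyl-CoA desaturase (log2 fold change 1.25 ± 0.25, adjusted p 0.0438), and 1 of 11 acyl-CoA and glycerolipid genes, Acsl6, a long-chain acyl-CoA synthetase of brain (0.45 ± 0.08, adjusted p 0.0304). Both were lower with tau than PBS in vector neurons (-1.27 and -0.37), a comparison that shares the vector and tau libraries.

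**Figure D3:**
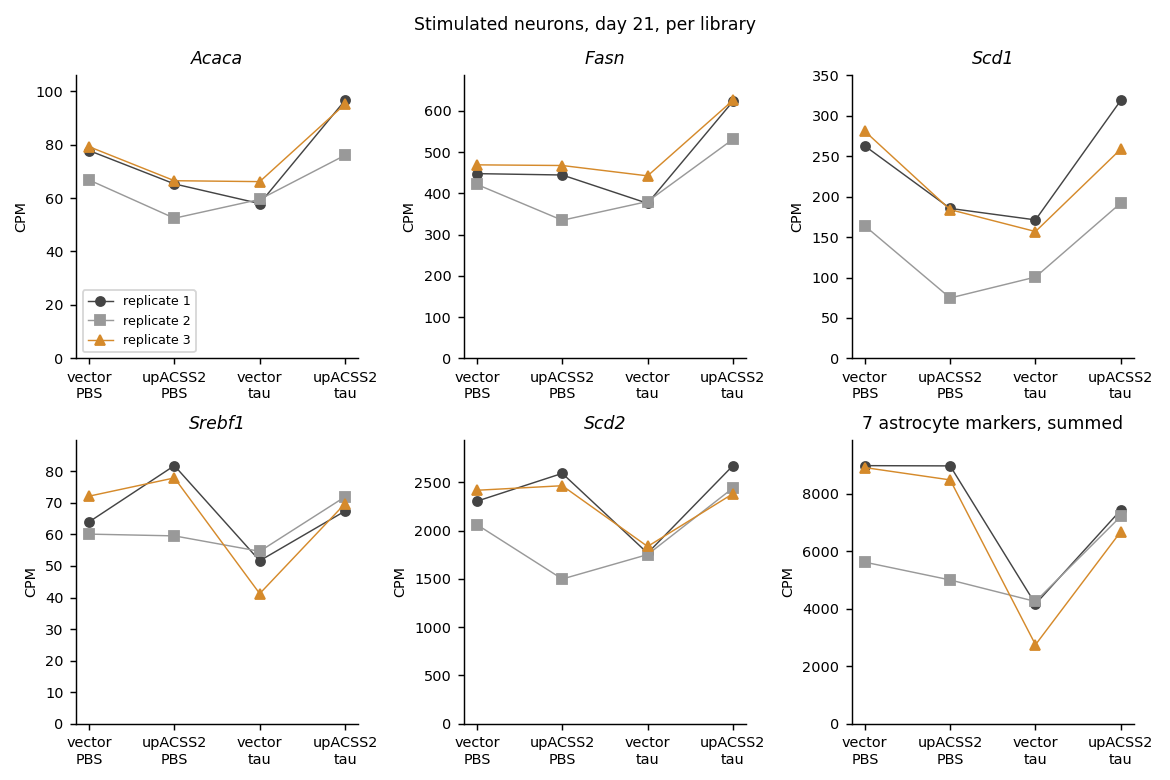
CPM of 5 genes and of 7 summed astrocyte markers in the 12 stimulated libraries (vertical axes from 0); lines join libraries with the same replicate number. Acaca and Fasn are highest with upACSS2 and tau in each replicate, and the astrocyte sum is lowest with vector and tau in each replicate.

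In cultures without a virus, tau against PBS gave positive log2 fold changes for all 10 members (0.04 to 1.38, median 0.64, all genes 0.01). None was called by edgeR (0% of genes called), with or without the replicate block. Unadjusted, 1 member passed, beside 13.9% of genes, and DESeq2 called 0 members. Replicates paired in this experiment (0.22 to 0.394), and the block gave a lowest adjusted p of 0.258 (Scd1). Scd1 held 614, 446, 191 and 513 CPM with tau and 210.0, 250.1 and 49.8 CPM with PBS. Srebf1 held 312.5, 268, 195 and 293.5 CPM with tau and 180.5, 215 and 62.3 CPM with PBS. Replicate 3 was the lowest in both groups for both genes, and for each of the 10 members the groups overlapped. The PBS replicate 3 also had the lowest astrocyte sum (1940 CPM, others 7039 and 8211) and precursor sum (90.9 CPM, others 1774 and 2161) and the highest neuronal sum (5849 CPM, others 3354 and 3667). With tau the astrocyte sum was 6201 to 11680 CPM, overlapping that with PBS. Between the groups the precursor sum (5 genes) was 2567 to 4382 CPM with tau and 90.9 to 2161 CPM with PBS, and the neuronal sum 2433 to 3279 CPM with tau and 3354 to 5849 CPM with PBS. Neither the precursor nor the neuronal sum overlapped, and the part of these sums in the members' differences was not tested. Elovl6 was the flattest, at 105 to 126 CPM with tau and 104.5 to 114 CPM with PBS.

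In unstimulated neurons with a virus, tau called no member either, by edgeR or DESeq2. On day 9, 4.28% of genes were called with vector and 0.349% with upACSS2, and the members ran from -0.18 to 0.28 and from -0.10 to 0.21 on the log2 scale. With upACSS2, 4 of 10 members were higher in every tau library than in any PBS library, beside 7.74% of genes. Among them was Srebf1, at 40.05, 41.4 and 41.1 CPM with tau and 36.1, 33.8 and 35.8 CPM with PBS. On day 21 0% of genes were called with either virus, and the members' medians were -0.16 with vector and 0.31 with upACSS2. The unadjusted counts were 2 with vector and 4 with upACSS2 on day 9, beside 20.6% and 9.05% of all genes, and 0 and 0 on day 21, beside 9.3% and 6.36%. The interaction of virus and tau called no member on day 9 (0.663% of genes) or day 21 (0%), with a lowest adjusted p among members of 0.118 and 0.593. The unadjusted counts there were 1 and 2, beside 17.2% and 8.3% of all genes.

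The wider pathway gave a few calls on day 9 and none on day 21 within these virus and tau comparisons. With upACSS2 against vector in PBS on day 9, where 10.2% of all genes were called, 1 of 14 regulators rose and 1 fell, 2 of 9 other elongation genes rose and 1 fell, and 1 of 10 acyl-CoA and glycerolipid genes rose. The changes with the largest size were those of Thrsp, a lipogenic regulator responsive to thyroid hormone (log2 fold change -0.33 ± 0.06, adjusted p 0.00308), Hsd17b12, the ketoacyl-CoA reductase of chain elongation (-0.28 ± 0.06), and Tecr, the enoyl-CoA reductase of the same cycle (0.25 ± 0.04). Tau against PBS called Hsd17b12 with vector (-0.34 ± 0.06, 4.28% of genes called) and Thrsp with upACSS2 (0.29 ± 0.06, 0.349% called). The interaction of virus and tau on day 9, which shares these libraries, called Hsd17b12 (0.41), Thrsp (0.39) and Elovl2, an elongase of polyunsaturated chains (-0.33). No gene of the lists was called with upACSS2 against vector in tau on day 9.

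In mouse hippocampus no member passed between upACSS2 and vector in any of 4 comparisons by edgeR or DESeq2, and edgeR called 0% of all genes in each. Unadjusted, 0 members passed in aged, 1 in 10-month, 1 in PS19 mice at 1 month and 0 at 6 months, beside 5.58%, 8.83%, 2.92% and 14.1% of all genes. The members' median log2 fold change was 0.02 in aged mice, 0.02 in 10-month mice, 0.12 in PS19 mice at 1 month and -0.03 at 6 months. Fasn ran from 247 to 311 CPM (median 283) in aged mice with upACSS2 and from 252 to 334 CPM (median 269.8) with vector, and the groups overlapped. In PS19 mice at 1 month Fasn held 450, 436, 438, 348 and 382.5 CPM with upACSS2 and 325, 292, 387, 301 and 318 CPM with vector, a log2 fold change of 0.34. There all 10 members were positive (0.06 to 0.34), and the lowest adjusted p was 0.964. At 6 months Fasn held 320.0, 373, 173, 352 and 386 CPM with upACSS2 and 346, 382, 363, 387 and 382 CPM with vector, replicate 3 with upACSS2 standing far below the rest. Elovl6 in 10-month mice ran from 55.6 to 74.4 CPM with upACSS2 (n = 6) and held 54.7, 61.3, 55.8, 50.4 and 60.7 CPM with vector, a log2 fold change of 0.24 with overlap.

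Over time in PS19 vector mice Srebf1 and Elovl5 rose, 2 of 10 members, where 7.46% of all genes were called. Srebf1 held 43.5, 54.97, 50.3, 39.8 and 70.6 CPM at 1 month and 68.7, 54.2, 143, 116 and 73.0 CPM at 6 months (log2 fold change 0.81 ± 0.2, adjusted p 0.0221). Elovl5 held 54.4, 65.2, 60.7, 58.2 and 72.3 CPM, then 80.7, 65.0, 103, 86.2 and 72.6 CPM (0.39 ± 0.11, adjusted p 0.038). Replicates 3 and 4 at 6 months were the highest for both genes, and the time points overlapped. Neither call held without single mice. For Srebf1 the adjusted p was 0.0591 and 0.0666 without replicates 3 and 4 at 6 months (log2 fold changes 0.58 and 0.70), 0.0668 and 0.0508 without replicates 1 and 2 at 1 month, and 0.0771 in a fit of the 2 groups alone. Elovl5 lost its call under 9 of 15 alternatives (adjusted p 0.0583 to 0.11), among them leaving out replicate 1, 2, 3 or 4 at 1 month or replicate 1, 3 or 4 at 6 months.

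Glial markers stood high in the same mice. Microglial sums were 359.9, 569, 359, 278 and 919 CPM at 1 month and 595, 405, 980, 735 and 728 CPM at 6 months, and astrocyte sums reached 9922 and 7334 CPM in replicates 3 and 4 at 6 months against 3753 to 6346 CPM at 1 month. Within time points, the vector mice gave a correlation with the astrocyte sum of 0.90 for Srebf1 and 0.86 for Elovl5, over 10 mice whose genes share library and depth. With the microglial sum these were 0.83 and 0.81, and with the neuronal sum -0.78 and -0.71. In PS19 upACSS2 mice Srebf1 and Elovl5 gave -0.14 and 0.78 with astrocytes, -0.05 and 0.97 with microglia and 0.17 and -0.67 with neurons. In aged mice the correlations with the astrocyte sum were -0.40 and 0.45 with upACSS2 and 0.03 and -0.27 with vector. The part of glial content in the time difference was not tested. In upACSS2 mice no member was called over time (0.0442% of genes; 5 members unadjusted, beside 13.7% of genes, and 0 by DESeq2). Fads1, Elovl6 and Acaca were lower in every 6-month mouse than in any 1-month mouse there, 3 of 10 beside 1.48% of genes, but the 1-month group is the one labelled whole hippocampus. The interaction of virus and time called no member (0% of genes). Of the wider pathway, 5 genes rose with time in vector mice, among them Pnpla3 (1.17 ± 0.3), Mlxipl, a carbohydrate-responsive regulator of lipogenesis (0.92 ± 0.23), and Elovl1, a further fatty acid elongase (0.59 ± 0.17), and none fell. By list these were 1 of 6 genes of carbon and NADPH supply, 1 of 15 regulators, 1 of 9 elongation, 0 of 7 desaturation and 2 of 11 acyl-CoA and glycerolipid genes tested, to be read against the 7.46% of all genes called there.

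**Figure D4:**
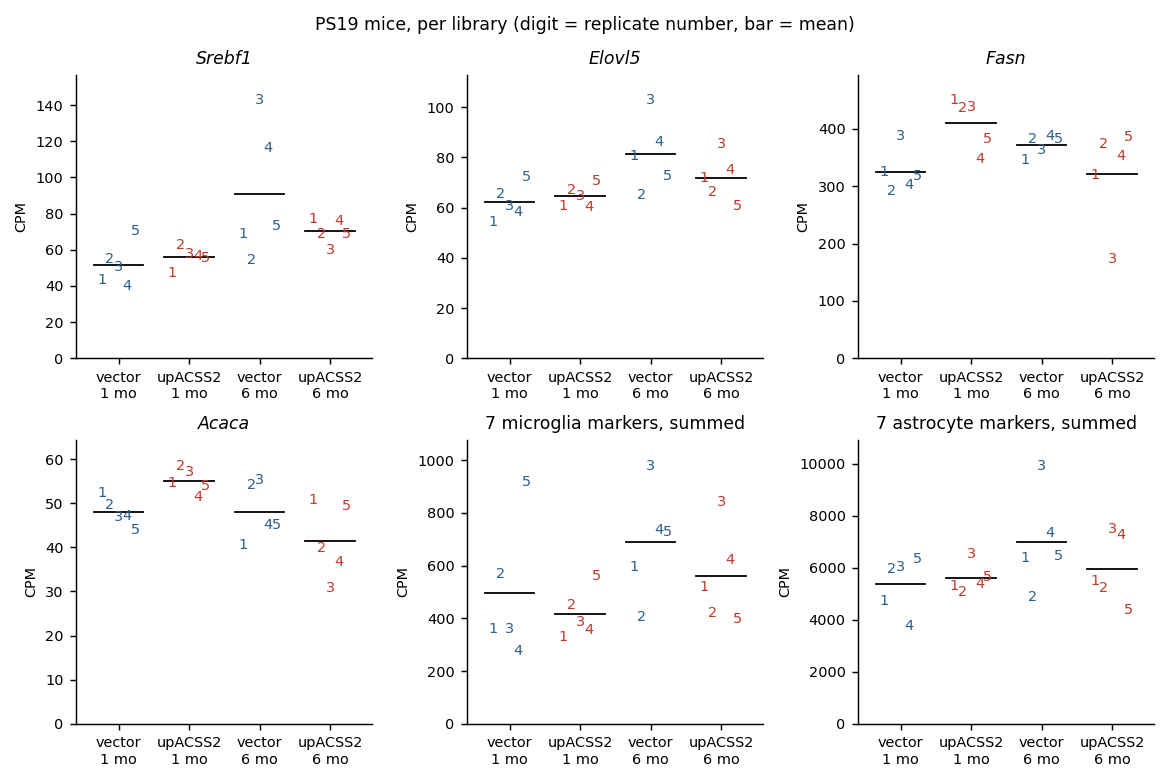
CPM of 4 genes and summed markers of microglia and astrocytes (7 each) in PS19 mice by virus and months after injection (mo); digits are replicate numbers and bars are means, axes from 0. Replicates 3 and 4 of the 6-month vector mice are highest for Srebf1, and replicate 3 of the 6-month upACSS2 mice is lowest for Fasn and Acaca.

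Per mouse, the members were set against Acss2 within virus groups of 6 or more mice (50 relations over 5 sets of mice, adjusted together). The PS19 time points were joined, and the 10-month vector mice (n = 5) were left out. None passed, and no gene of the genome passed in a regression on Acss2 in any of the 5 sets (0% called in each). The relation with the smallest p was that of Acaca in aged upACSS2 mice: Acaca ran from 42.7 to 51.1 CPM (median 47.3) while Acss2 ran from 46.7 to 61.5 CPM (median 54.9). Pearson's r was 0.79 (100000 permutations, p 0.00229, adjusted 0.114) and Spearman's rho 0.81 (p 0.00213, adjusted 0.0575) over 12 mice, with r 0.94 when the mice farthest from the median of Acss2 (replicates 2 and 6) were left out. Earlier results of these data set replicates 1 to 3 of the aged mice apart from 4 to 12; within replicates 4 to 12 r was 0.91 (n = 9). In aged vector mice, whose Acss2 spanned 39.96 to 53.7 CPM, r for Acaca was 0.14 over 12 mice, 0.50 without replicates 8 and 10, which lay farthest from the median of Acss2, and 0.08 within replicates 4 to 12. The difference between these groups was not tested. Signs were mixed among members in the aged upACSS2 mice, with 5 of 10 positive and a median r of -0.03. Elovl6 had r 0.59 and Srebf1 r -0.61 (permutations, adjusted p 0.288 each). In the same upACSS2 mice the neuronal marker sum correlated with Acss2 and with Acaca (r 0.61 for each), and its part in the relation of Acaca with Acss2 was not tested.

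Across the PS19 upACSS2 mice, where Acss2 spanned 44.95 to 1465 CPM, r with Acaca within time points was 0.51 (p 0.0127, adjusted 0.161) and rho 0.58 (adjusted 0.36), with r 0.78 without replicates 2 and 5 at 1 month. Acaca at 6 months held 50.7, 39.9, 30.8, 36.7 and 49.3 CPM, in the same order of mice in which Acss2 held 237, 100.5, 44.95, 55.4 and 111 CPM: the 3 mice with the least Acss2 were also the 3 lowest for Acaca. Replicate 3, lowest for both, also had the highest microglial sum of its group (841 CPM). Over the 10 mice, within time points, Acaca correlated with the neuronal sum (r 0.75), the astrocyte sum (-0.73) and the choroid plexus sum (0.58), and Acss2 gave 0.05, -0.28 and 0.55 with the same sums. Their part in the relation was not tested. In PS19 vector mice Elovl5 had r -0.79 (p 0.0116, adjusted 0.161) and Acacb r -0.73 (adjusted 0.161), over a span of Acss2 of only 43.1 to 66.3 CPM. Acaca gave r 0.32 and rho -0.13 there, and replicate 3 at 6 months had the lowest Acss2 (43.1 CPM) and the highest Acaca (55.4 CPM). In these vector mice 14.4% of all genes had r over 0.5 with Acss2 and 13.1% r under -0.5. The astrocyte sum gave r -0.57 with Acss2 and 0.86 with Elovl5, and the neuronal sum 0.64 and -0.71, and their part was not tested. In aged vector mice Fads2 had rho 0.80 (p 0.0023, adjusted 0.0575) and r 0.60. All p-values of these correlations are from permutations, and the 10-month upACSS2 mice (n = 6) gave no r over 0.5 for any member.

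**Figure D5:**
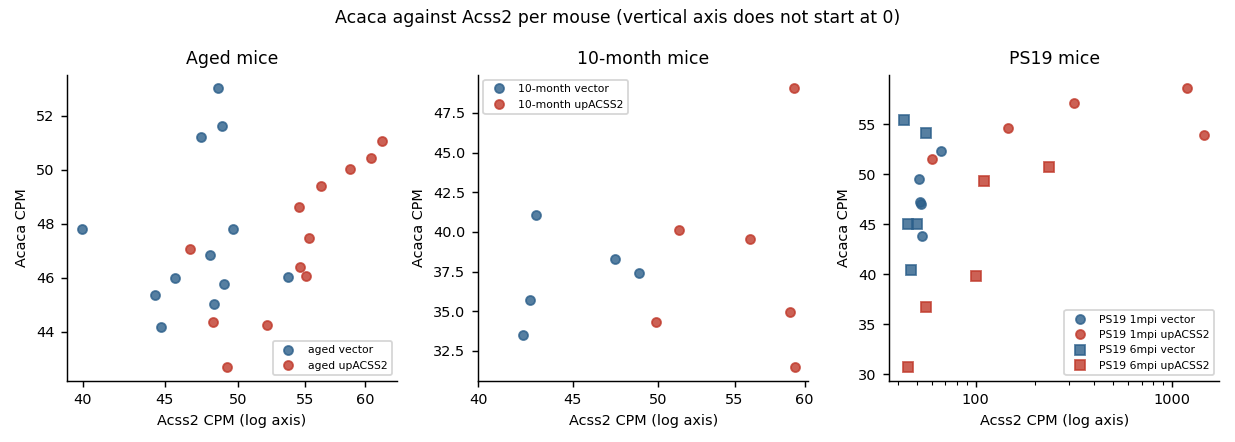
Acaca CPM (vertical axis not from 0) against Acss2 CPM (log axis) per mouse, for aged, 10-month and PS19 mice; red is upACSS2, blue is vector and mpi is months after injection. In aged upACSS2 mice both genes are high in the same mice (r 0.79, n = 12), in a range of Acss2 from 46.7 to 61.5 CPM.

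The 10 genes did not move as 1 block. Over the 45 pairs, with log2 CPM taken minus the group mean, the median of the table-wise Pearson r was 0.37, against -0.02 between members and all 12682 genes kept in every table, and 17 pairs had a median over 0.5. These are correlations over libraries that share depth and cell makeup, given as a description. The median pair ran from 0.97 in the culture table without virus to 0.50 and 0.58 in the unstimulated and stimulated neurons, 0.33 in 10-month mice, 0.24 in PS19 mice and 0.06 in aged mice. The pairs with the highest median were Scd2 with Fads2 (0.86, but -0.04 in aged mice), Scd1 with Scd2 (0.80, and 0.69 or more in every table), Fads1 with Fads2 (0.79, lowest 0.56) and Scd2 with Fads1 (0.75, lowest 0.31). Acaca with Fasn (lowest 0.35), Scd1 with Fads2 (lowest 0.03) and Elovl5 with Srebf1 (lowest 0.18) followed at 0.72 each. Acacb with Elovl6 (-0.24) and Elovl6 with Srebf1 (-0.21) had the lowest.

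By the same measure, over 6 tables, genes most like each member were taken from the 12259 genes with a non-predicted symbol. For Acaca, Lss (0.74, lowest table -0.3), an enzyme of cholesterol synthesis, was among them. Fasn was nearest to Fry (0.86) and Map1a (0.85), a microtubule protein, although r with Fry was -0.83 in the table where it was lowest. Scd1 was nearest to Scd2 and Pogk (0.80 each, with Pogk at -0.69 in its lowest table), Scd2 and Fads2 to each other (0.86), Fads2 also to Mmp14 (0.86), and Fads1 to Axl (0.80), a receptor tyrosine kinase. Srebf1 was nearest to Ddr1 (0.90), a collagen receptor. Elovl5 was nearest to Lamp1 (0.84) and Lamp2 (0.83, lowest table -0.3), proteins of the lysosome membrane. Acacb was nearest to Slc4a2 (0.81) and Plxnb2 (0.80, lowest table -0.15), and Elovl6, the loosest, to Zdhhc5 (0.69) and Zfp804a (0.65). With 1 Pearson r over all 98 libraries in place of the median over tables, 9 of the 20 choices (2 per member) stayed.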

How the data were processed

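Gene counts of 98 mouse RNA-seq libraries were read from 6 tables that the authors deposited as raw counts per gene. Total RNA was purified by Trizol-chloroform and RNeasy columns and made into libraries with NEB kit chemistry, per the labels' protocols. The submitters' processing notes name STAR, featureCounts, HTSeq, DESeq2 and mm10, while versions, annotation and strand setting are not given in the sources used here. All 98 sample columns were used; in the table without virus, a row naming no gene held 6.13% to 8.74% of counts and was left out.

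The 10 genes, the marker and pathway lists and the tests were chosen with earlier results of these data known. Members were all named; of the pathway lists, the 3 called genes with the largest change per comparison were to be named. Groups came from sample titles. Each comparison was fitted with edgeR 4.0.16 (R 4.3.3): filterByExpr by group, TMM, the two-sided quasi-likelihood F test, Benjamini-Hochberg adjustment over all genes and a threshold of 0.05. Day comparisons used all 24 unstimulated libraries in 1 fit, the others the groups of 1 experiment and day. The first contrast of each fit was also run on simulated data in which 200 genes were changed. The outcome is not given here, so no result rests on it. CPM used TMM-scaled library sizes. Depth was 5075099 to 39985460 counts per library, which limits Acacb most. Correlations used 100000 permutations. Same-numbered libraries were called paired where every correlation of deviations exceeded 0.1, which held for 3 of 23 comparisons: upACSS2 against vector in stimulated tau neurons (0.111 to 0.359), tau against PBS without a virus (0.22 to 0.394) and in stimulated vector neurons (0.123 to 0.326). Alternatives were DESeq2 1.42.0, other size factors, no filter, other sets of libraries in the fit, the replicate block and leaving out each library. Promoters are from RefSeq. Some of the genes most like a member are not reported here.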

Additional observations from a re-analysis of the deposited data

Results flagged for a closer look

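In groups of 4 to 10 libraries, the gap of the highest or lowest library to the rest exceeded Dixon's critical value in 7 of 70 tests of a gene in a group, where chance gives about 1 in 20. Acacb was 15.7 CPM in replicate 1 of the 10-month upACSS2 mice, against 4.55 to 6.38 CPM in the others. Fads2 was 216 CPM in replicate 2 of the 10-month vector mice, against 160.5 to 168 CPM. In the PS19 upACSS2 mice at 1 month, replicate 3 was high for Fads1 (313 CPM, others 234 to 250) and Fads2 (233 CPM, others 171 to 177), and replicate 5 was low for Elovl6 (73.5 CPM, others 80.6 to 83.4). Fads2 was 149 CPM in replicate 4 of the PS19 vector mice at 1 month, against 167 to 175 CPM. Scd2 was 1543 CPM in replicate 1 of the PS19 upACSS2 mice at 6 months, against 1332 to 1373 CPM.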

How the results depend on the processing

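Of 402 values of 34 results under an alternative, 373 stayed within 1.5 times the reported count, and 319 of 339 alternatives to a count of 0 stayed at 0. For the genes called, 390 of 412 alternatives kept the call, 22 lost it and 0 reversed. With DESeq2, upACSS2 against vector in stimulated tau neurons called 3 members (966 genes, against 140), tau against PBS there 1 with vector and 2 with upACSS2, and their interaction 2. With the replicate block these counts were 3 (399 genes), 1, 3 and 3, and upACSS2 against vector with PBS called 1 and PS19 vector mice over time 1; only the first and the comparison with vector had paired numbers. The block changed no other count by over 1.5 times. Without the filter on low counts, day 9 called 2 members for virus in tau, 2 for tau with vector, 1 for tau with upACSS2 and 1 for their interaction, and stimulated tau neurons 2 for virus. In a fit of all 24 unstimulated libraries, day 21 called 1 member for virus with PBS (Elovl6; 1576 genes, against 2) and 1 with tau (Acaca; 528 genes, against 4). With only the groups compared, PS19 vector mice over time called 0. Leaving out 1 library gave 0 to 1 for tau on day 9 with vector (1, Scd1, without vector PBS replicate 2), 0 to 1 for the day 9 interaction (1, Scd1, without that library or vector tau replicate 3), 0 to 1 for tau in stimulated vector neurons (1, Acacb, without PBS replicate 2) and 0 to 2 for PS19 vector mice over time. For these the cause was not tested. Where no number of all genes stands beside a count, its background is not given here, so it is not a result about the members. Leaving out single libraries was not done for the aged mice. Depth limits Acacb, at about 1 CPM on day 9, most.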
